A study of Homo sapiens with 8 samples.

Results

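The 10 genes described here (KRT7, KRT8, KRT18, KRT19, CLDN3, CLDN4, CLDN7, MUC1, SPP1 and CFTR) encode structural and secretory components of ductal and other simple epithelia. They were taken by name, with earlier results of these data known, so their gaps to all genes or regions are descriptions only. All H3K27ac peaks in each gene body and the 20 kb flanking it at both ends were collected in every library. The members are 10 of the 20007 protein-coding genes of the human annotation used (GENCODE release 44, hg38). The windows of KRT8 and KRT18 overlap, as do those of CLDN3 and CLDN4, so a peak there can count for both genes of a pair.

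The cells were pancreatic progenitors (PPs) made from MEL1, an established line of human embryonic stem cells. The methods name it as MEL1 INS GFP/W, which carries a GFP reporter at the insulin gene. All cultures were kept in EF6, a DMEM-based medium with B27, EGF, bFGF and the TGFβ inhibitor 616452. One group received the solvent DMSO and the other received 1 μM I-BET151, an inhibitor that keeps BET proteins from binding acetylated histones, in both cases for 7 days. H3K27ac (histone H3 acetylated at lysine 27) was measured by chromatin immunoprecipitation and sequencing (ChIP-seq) in 2 DMSO and 2 I-BET151 libraries.

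In the exocrine pancreas, ducts are lined by a simple epithelium that carries and alkalinises the juice of the acini. Keratins form the filaments that give such cells mechanical strength, and type I keratins pair with type II keratins. Claudins are the membrane proteins of tight junctions and set which ions pass between cells. Mucins, secreted matrix proteins and chloride channels act at the surface that faces the lumen. H3K27ac marks active promoters and enhancers, and BET proteins read it.

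The lists held 13606 and 14248 peaks in DMSO and 12887 and 12312 in I-BET151. They rested on 7.76 to 9.84 M (mega) ChIP reads, worked out from the lists themselves, and DMSO replicate 2 was the deepest library. A start peak, one with its summit within 3 kb of an annotated transcription start, was present in all 4 libraries at 9 of 10 progenitor markers. PDX1, NKX6-1 and SOX9 were among them, and PTF1A was the exception. No library had a start peak at any of 8 endocrine markers, while 1 of 6 acinar (CPA1), 1 of 5 pluripotent (LIN28A), 2 of 7 mesenchymal (VIM and PDGFRB) and 1 or 2 of 5 hepatic markers had one. These are bulk cultures, so a smaller share of cells with an acetylated gene and less acetylation per cell cannot be told apart.

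Peaks were called only in DMSO at CLDN7, in KRT15 near KRT19 and, more weakly, upstream of MUC1. At CLDN4 a start peak was kept in all libraries, with a lower ChIP signal at its summit in I-BET151. The genomic sequence at these 4 places is shown first. All are reference sequence of hg38, plus strand, 5′ to 3′, trimmed to bases outside annotated exons. Capitals mark matches, on either strand, to the GC box (GGGCGG, or CCGCCC on the other strand), the TEAD motif (GGAATG) or the ETS motif (CCGGAA).
CLDN7, chr17:7261405-7261704, intron: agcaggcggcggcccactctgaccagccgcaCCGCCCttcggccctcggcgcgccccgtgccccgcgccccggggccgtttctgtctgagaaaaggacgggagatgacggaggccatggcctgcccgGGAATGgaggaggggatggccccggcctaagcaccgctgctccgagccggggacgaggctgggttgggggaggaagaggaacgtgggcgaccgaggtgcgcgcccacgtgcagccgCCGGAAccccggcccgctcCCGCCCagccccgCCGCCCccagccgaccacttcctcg
KRT19, chr17:41521164-41521463, in an intron of the neighbouring KRT15: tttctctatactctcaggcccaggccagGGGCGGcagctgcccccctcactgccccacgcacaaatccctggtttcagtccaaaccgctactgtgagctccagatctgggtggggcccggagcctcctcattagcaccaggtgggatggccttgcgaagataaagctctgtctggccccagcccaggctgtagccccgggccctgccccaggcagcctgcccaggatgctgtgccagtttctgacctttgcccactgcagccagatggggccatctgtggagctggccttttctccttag
MUC1, chr1:155193599-155193898, intergenic: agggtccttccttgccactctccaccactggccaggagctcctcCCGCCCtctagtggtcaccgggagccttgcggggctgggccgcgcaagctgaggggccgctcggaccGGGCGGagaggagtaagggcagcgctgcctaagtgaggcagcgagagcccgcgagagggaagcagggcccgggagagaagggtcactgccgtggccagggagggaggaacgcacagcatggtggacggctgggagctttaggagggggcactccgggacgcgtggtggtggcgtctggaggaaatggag
CLDN4, chr7:73827974-73828173, intron, beside the start of an upstream transcript: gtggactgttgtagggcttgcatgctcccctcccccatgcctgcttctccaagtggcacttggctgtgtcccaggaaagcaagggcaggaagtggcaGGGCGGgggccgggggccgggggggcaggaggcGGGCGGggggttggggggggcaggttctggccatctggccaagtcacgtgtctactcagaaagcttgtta
The CLDN7 window holds 3 GC boxes, 1 TEAD and 1 ETS match, and its motifs do not overlap. The KRT19 window holds 1 GC box, and the MUC1 and CLDN4 windows hold 2 each.

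All 4 windows are rich in G and C, from 62.7% near KRT19 to 75.3% at CLDN7. Across all 15752 regions, the median G and C content of the 300 bp around the summit was 69%, against 67.7% in the 27 regions of the member windows. The GC box was in 64.7% of all such 300-bp windows, in 6 of the 10 lost and in 6 of the 9 shared member regions (both terms are defined further on). TEAD letters were in 10.2% of all windows, in 3 of the lost and in 0 of the shared member regions. ETS letters were in 17.2%, in 1 lost and 1 shared region. The AP-1 motif (TGANTCA, 3.68% of all windows), the FOXA motif (TGTTTNC, 8.50%) and the SOX motif (ACAANG, 24.9%) were in 1, 1 and 3 of the lost regions, and in 0, 0 and 4 of the shared ones. The GRHL motif (AACNNGTT, 1.44%), the TATA box (TATAAA, 1.14%) and the ONECUT motif (ATTGAT, 1.14%) were in no member region. All motifs were searched on both strands. These matches are descriptions of letters and were not tested as binding sites.

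H3K27ac peaks covered less of the member windows in I-BET151 than in DMSO. With overlapping windows counted once, they covered 13.1 and 14.7 kb in DMSO replicates 1 and 2 and 7.61 and 7.22 kb in I-BET151 replicates 1 and 2. The groups do not overlap, and the means were 13.9 ± 1.11 kb and 7.42 ± 0.27 kb (SD, n = 2 each), a difference of −6.49 kb. Two-sided exact permutation over the 6 ways to assign the libraries gave p = 0.33, the smallest that this test allows with 2 libraries against 2, so none of the exact permutation tests used here can pass 0.05. No label says that same-group libraries came from separate cultures, so these p-values measure only the spread between libraries.

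The covered length at the members in I-BET151 was 53.3% of that in DMSO, while the whole lists kept 90.1% (9.89 and 8.90 Mb). The number of peaks in the member windows was 22 and 27 in DMSO and 13 and 10 in I-BET151. By gene, 4 of the 10 members had a lower covered length in both I-BET151 libraries than in either DMSO library (KRT8, KRT19, CLDN4 and CLDN7), and 0 had a higher one. Over the 13649 protein-coding windows with a peak in any library, 41.2% were lower in the same sense and 13.2% were higher. Among the 8 members with a peak in any library, these 4 set beside 41.2% are too few to be told apart from all windows. KRT8 was no longer lower with a 5 kb flank, at −log10 q of at least 5 or with lists of equal length, and the other 3 were lower in each of these. The median difference over the 10 members was −0.27 kb, against 0 kb over all 20007 windows, with or without a peak.

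**Figure D1:**
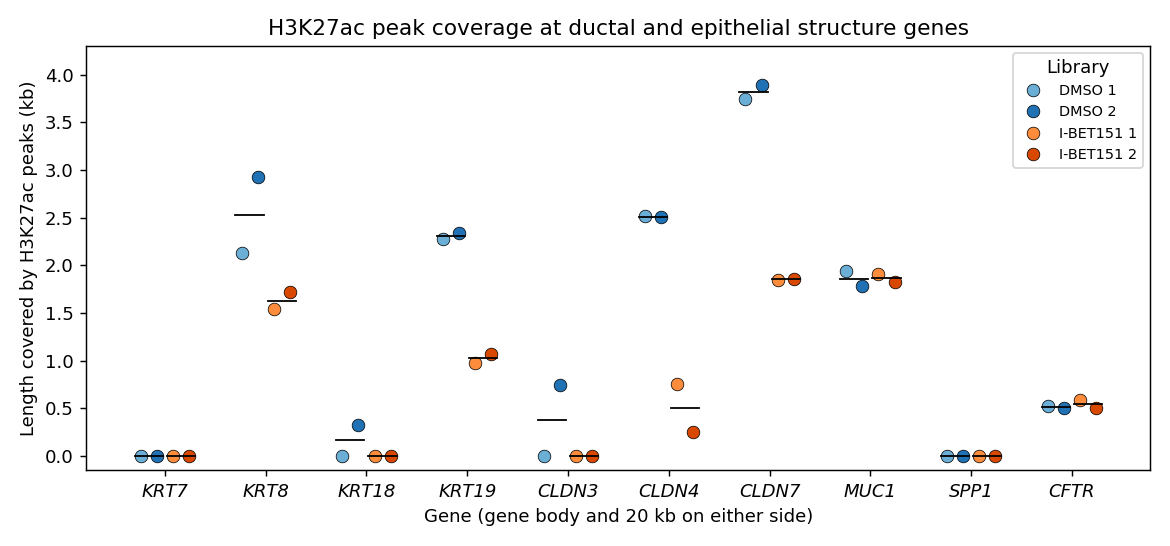
Length covered by H3K27ac peaks (kb, vertical axis) in the window of each of the 10 genes, 20 kb beyond the gene at both ends (horizontal axis). Each point is 1 library, blue for DMSO and orange for I-BET151, and bars are means of 2 libraries. The points of the groups separate at KRT8, KRT19, CLDN4 and CLDN7, lie together at MUC1 and CFTR, and are all at 0 at KRT7 and SPP1.

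The plot of covered length by gene shows 3 kinds of member. KRT8, KRT19, CLDN4 and CLDN7 lay lower in I-BET151, MUC1 and CFTR had about the same length in both groups, and the remaining 4 had little or no peak. Among that last set, KRT18 and CLDN3 had a peak only in DMSO replicate 2, and KRT7 and SPP1 had none in any library. A gene without a peak had none past the authors' threshold, and weaker acetylation may still have been there.

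Peaks that overlapped by 1 bp or more between libraries were joined into regions, of which 27 touched a member window. A region is termed lost where both DMSO libraries and neither I-BET151 library had a peak, gained in the reverse case, and shared where all 4 had one. Of the 27 regions, 10 were lost (37.0%), 1 was gained (3.70%), 9 were shared and 7 were called in some other combination. Without DMSO replicate 1, a deeper single DMSO list set the rule and 16 regions were lost. With lists of equal length, 8 were lost. Among all 15752 regions 8.60% were lost, 2.81% were gained and 65.5% were shared. Because the members were chosen with earlier results of these data known, the gap to these shares is a description only. The lost regions of the members were not only marginal peaks. Ranked by p-value within their list, they lay at 29.4 to 99.9% of the list from its top in DMSO replicate 1 (median 70.5%) and at 28.8 to 97.7% in DMSO replicate 2 (median 74.5%). Over all 1355 lost regions the medians were 80.2% and 77.3%.

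Among the 10 lost regions, 3 lay at the start of a member (2 at CLDN7 and 1 at MUC1) and 1 in the body of CLDN4. The others lay in or beside neighbouring genes of the windows. Of these, 3 were in KRT15 and 1 each in CTDNEP1 and METTL27, all within 3 kb of a start of those genes. The last, 1 region, lay between genes downstream of KRT8. Which gene such a region serves cannot be read from its position.

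**Figure D2:**
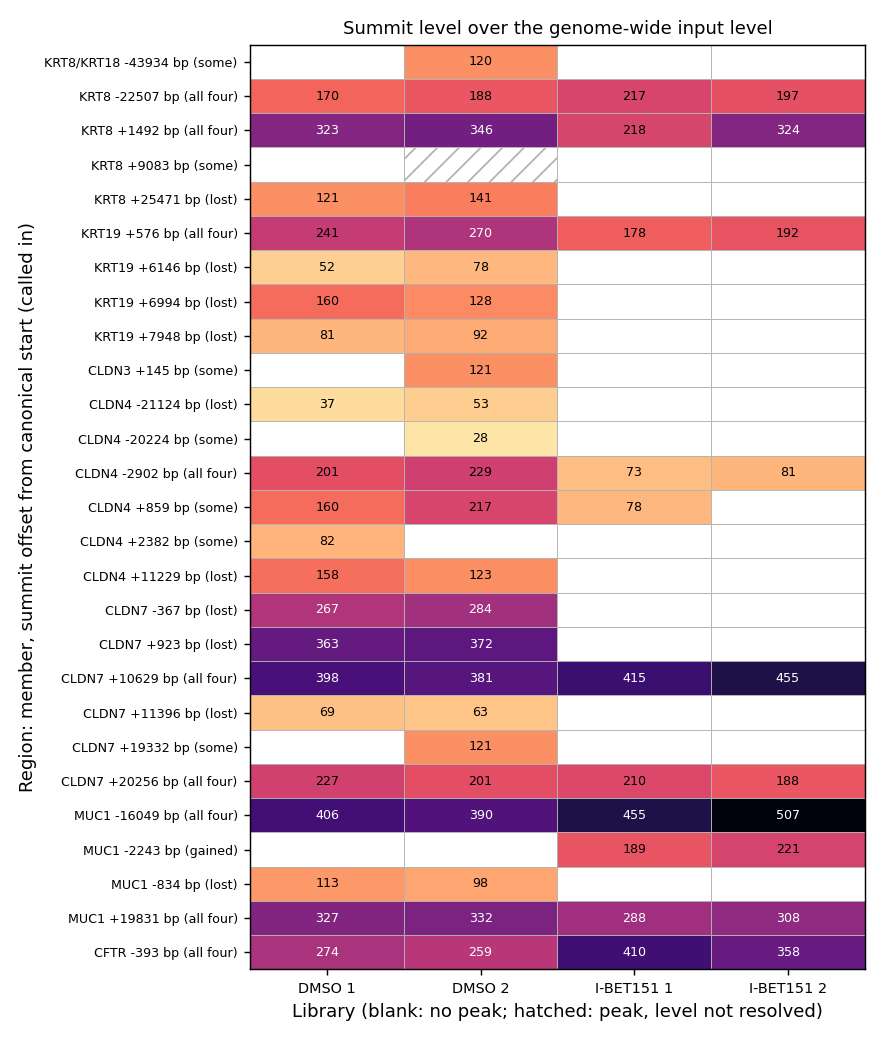
Summit level at each of the 27 regions of the member windows (rows, with the distance of the summit from the canonical start of the member in bp, positive in the direction of transcription) in each library (columns). The number is the ChIP signal at the summit divided by the genome-wide input level of the same list, darker for higher values, blank where no peak was called and hatched where the level could not be worked out. Both CLDN7 start regions are filled in DMSO only, and the CFTR region is darker in I-BET151.

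Fold enrichment, as the authors' peak caller gave it, divides the ChIP signal at the summit by the local input level, with a constant added to both. The fold thus also moves with the input beneath a peak, and where that input is low it lies well below the plain ratio. The summit level divides the same ChIP signal by the genome-wide input level of the list instead, and it was derived per peak from those deposited values and the p-value. Both are given below for the start peaks, and neither is an expression value. A start peak was present at 6 and 8 members in DMSO and at 5 and 5 in I-BET151. The mean difference of −2 members was −1 with lists of equal length and −3 with summits within 1 kb of a start. In all, 8 members had a start peak in any library and 5 in all 4. Among all protein-coding genes, 10936 had one in any library and 9130 in all 4. Shares for single libraries were not worked out, so the counts per library have no background.

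KRT8 and KRT18 are the type II and type I keratins of simple epithelia and form filaments together. KRT8 (chr12:52897187-52949954, minus strand) had peaks in all 4 libraries just inside its canonical start, in the region chr12:52903330-52904759. Its covered length over the whole window was 2.13 and 2.93 kb in DMSO against 1.54 and 1.72 kb in I-BET151, and the I-BET151 mean was 64.4% of the DMSO mean. The groups do not overlap in this window, but with a 5 kb flank the lengths were 1.66 and 2.16 kb in DMSO against 1.54 and 1.72 kb in I-BET151, which overlap. The strongest peak of the start region had its summit 1481 to 1492 bp inside the start in both DMSO libraries and in I-BET151 replicate 2, with a fold of 9.99 and 7.71 in DMSO and 7.33 in that I-BET151 library, and a summit level of 323, 346 and 324. In I-BET151 replicate 1 the strongest peak was another one, 532 bp inside the start, with a fold of 10.5 and a summit level of 218. The groups overlap by both measures, and the comparison sets unlike peaks side by side.

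A KRT8 intron 22507 bp upstream of the canonical start held another shared region, chr12:52927311-52927785. There the summit level was 170 and 188 in DMSO and 217 and 197 in I-BET151, higher in both treated libraries, while the peak was narrower (421 and 475 bp in DMSO, 376 and 374 bp in I-BET151). The fold was 8.82 and 16.9 in DMSO and 10.5 and 12.4 in I-BET151, which overlap. A shorter peak thus went with a summit level that was not lower. A lost region downstream of the gene, chr12:52879098-52879875, was weak in DMSO, with folds of 1.90 and 2.40, and another intergenic peak, 9083 bp downstream of the canonical start, was called only in DMSO replicate 2.

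KRT18 (chr12:52948871-52952906, plus strand) had a peak only in DMSO replicate 2. It covered 0.33 kb at chr12:52948829-52949153, with its summit 108 bp upstream of the canonical start, a fold of 5.46 and a −log10 q of 12.4. The region also lies in an intron of a long KRT8 transcript. DMSO replicate 2 is the deepest library, and the peak was still in its list when all lists were cut to their 12312 strongest peaks.

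KRT19, a type I keratin and a classic marker of pancreatic ducts (chr17:41523617-41528308, minus strand), kept its start peak in every library. The covered length was 2.28 and 2.34 kb in DMSO against 0.98 and 1.07 kb in I-BET151. The groups lie far apart relative to their spread, and the I-BET151 mean was 44.4% of the DMSO mean. The start region, chr17:41527274-41528473, accounted for 1168 and 1185 bp in DMSO against 979 and 1072 bp in I-BET151. Most of the difference therefore came from outside the KRT19 start, from lost regions in the neighbouring KRT15.

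The KRT19 start peak had a fold of 3.74 and 10.35 in DMSO and 3.71 and 3.70 in I-BET151. Only DMSO replicate 2 stood apart, and the local input beneath the peak was 22.7 times the genome-wide level there, against 62.0 in DMSO replicate 1 and 45.5 and 48.8 in I-BET151. The summit level, which leaves the local input out, was 241 and 270 in DMSO and 178 and 192 in I-BET151. The groups do not overlap, with an I-BET151 to DMSO ratio of 0.724 (exact permutation p = 0.33) against a median ratio of 1.03 over 9026 genes with a start peak in all 4 libraries.

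The 3 lost regions of the KRT19 window lay 6146 to 7948 bp downstream of its canonical start, in the neighbouring gene KRT15, a type I keratin of stratified epithelia. Their summits were 295 to 659 bp from the nearest start of a protein-coding KRT15 transcript, so by the 3 kb rule they are start peaks of KRT15. The middle one, chr17:41521114-41521539, contains the intronic sequence printed for KRT19. It had a fold of 16.6 and 8.71 and a −log10 q of 45.5 and 20.6 in the DMSO libraries. Its neighbours, chr17:41520201-41520562 and chr17:41521936-41522371, had folds of 8.61 and 12.7 and of 8.52 and 10.8. Each was in both DMSO lists and in neither I-BET151 list. KRT7 (chr12:52232520-52252186, plus strand), the type II partner that ducts also express, had no peak in its window in any library.

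**Figure D3:**
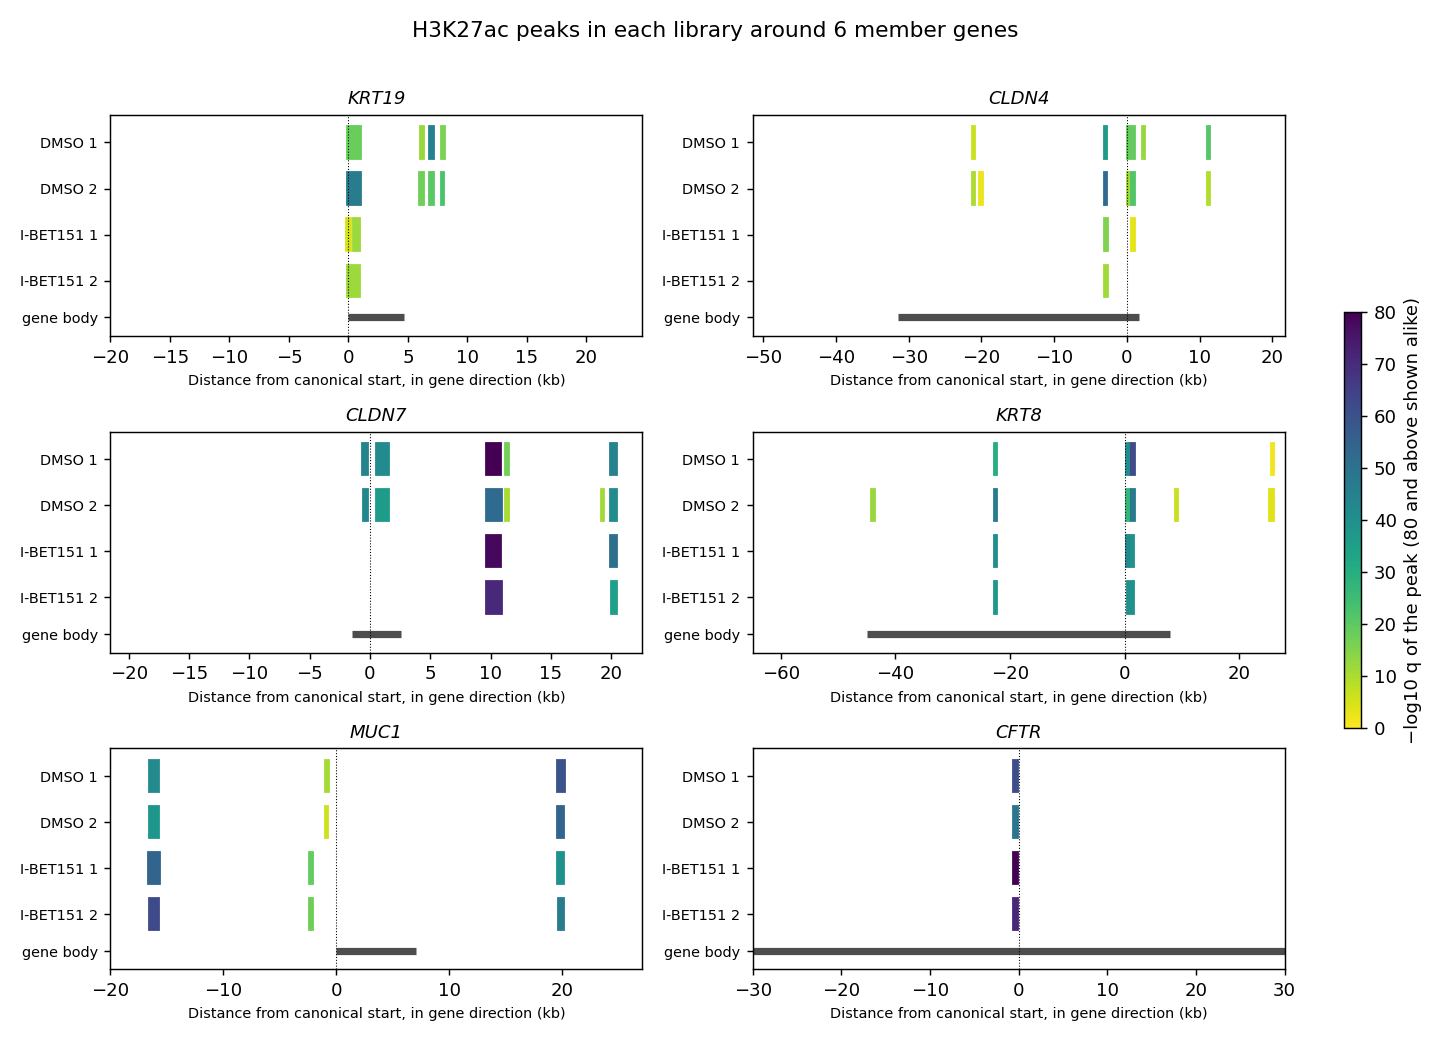
H3K27ac peaks in each library (rows) around KRT19, CLDN4, CLDN7, KRT8, MUC1 and CFTR, drawn by distance from the canonical start (kb, horizontal axis, positive in the direction of transcription) and coloured by −log10 q of the peak. The dotted line marks the start and the grey bar the gene body. Peaks 6146 to 7948 bp downstream of KRT19 and both peaks around the CLDN7 start appear only in the DMSO rows, and the peaks near MUC1 sit at different places in the groups.

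The claudins are sealing components of tight junctions. CLDN7 (chr17:7259903-7263983, minus strand) had start peaks in both DMSO lists and in neither I-BET151 list. The covered length of its window was 3.75 and 3.89 kb in DMSO against 1.85 and 1.85 kb in I-BET151, or 48.5% of the DMSO mean. What was left in I-BET151 lay at the starts of neighbouring genes.

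Around the CLDN7 start there were 2 lost regions. The intronic one, chr17:7260884-7261948, had its summit 923 bp inside the gene, a fold of 5.34 and 5.24 and a −log10 q of 41.9 and 36.2. The other, chr17:7262649-7263095, had its summit 367 bp upstream of the canonical start in an untranslated exon of another transcript, with a fold of 8.07 and 8.48 and a −log10 q of 44.1 and 42.7. These were strong peaks in both DMSO libraries, in the upper 28.8 to 37.3% of their lists, and their summit levels were 363 and 372 inside the gene and 267 and 284 upstream. With a start peak in both DMSO and neither I-BET151 library, CLDN7 was 1 of the 8 members with any start peak, and 440 of 10936 protein-coding genes (4.02%) did the same.

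Neighbouring genes in the CLDN7 window had shared as well as lost regions. The region at the shared start of ELP5 and CTDNEP1 had a summit level of 398 and 381 in DMSO and 415 and 455 in I-BET151, higher in both treated libraries, while its fold overlapped (12.3 and 7.84 in DMSO, 10.9 and 10.3 in I-BET151). At GABARAP the levels were 227 and 201 in DMSO and 210 and 188 in I-BET151, which overlap. A lost region in CTDNEP1, chr17:7250946-7251294, 204 bp from another start of that gene, had folds of 10.0 and 7.78 and summit levels of 68.6 and 63.3, and a peak beside GABARAP was called only in DMSO replicate 2.

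CLDN4 (chr7:73799542-73832690, plus strand) kept a start peak in all libraries, with a lower summit level in I-BET151 but an overlapping fold. The covered length was 2.52 and 2.50 kb in DMSO against 0.76 and 0.26 kb in I-BET151, 20.1% of the DMSO mean and the lowest share of the 6 members with a peak in every library. The strongest peak, chr7:73827856-73828308, lay at the start of an upstream transcript, 2902 bp before the canonical start.

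At this CLDN4 peak the fold was 8.93 and 15.4 in DMSO and 9.48 and 7.62 in I-BET151, and the groups overlap. The summit level was 201 and 229 in DMSO and 72.6 and 80.9 in I-BET151, a ratio of 0.357 with no overlap (exact permutation p = 0.33). The local input was also lower in I-BET151, 4.53 and 7.09 times the genome-wide level against 19.6 and 11.3 in DMSO, so the fold and the summit level differ for this gene. In whole reads the summit held 161 and 206 in DMSO and 53 and 60 in I-BET151, and −log10 q was 36.6 and 52.2 against 15.1 and 11.5.

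The canonical start of CLDN4, inside chr7:73831043-73832101, had a peak in both DMSO libraries and in I-BET151 replicate 1. The fold was 5.54 and 5.31 in DMSO and 2.92 in I-BET151 replicate 1. The −log10 q in that I-BET151 library was 3.29, at 98.6% of its list from the top, against 19.1 and 21.7 in DMSO. The lost regions of this window were an intronic one, chr7:73809750-73810034, with folds of 6.23 and 7.61, and one at the METTL27 start, chr7:73841967-73842470, with folds of 6.19 and 4.21. An intronic peak was called only in DMSO replicate 2 and one downstream of the gene only in DMSO replicate 1.

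CLDN3 (chr7:73768997-73770270, minus strand) had a start peak only in DMSO replicate 2, at chr7:73769991-73770735. It had a fold of 3.01 and a −log10 q of 5.52, close to the threshold, and it was no longer in the list after the same cut.

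MUC1, a membrane mucin of the luminal surface (chr1:155185824-155192916, minus strand), had the same covered length in both groups at different positions. The lengths were 1.94 and 1.78 kb in DMSO against 1.90 and 1.82 kb in I-BET151, which overlap. In DMSO a peak lay 834 bp upstream of the canonical start, at chr1:155193557-155193934, with a fold of 4.47 and 3.84 and a −log10 q of 10.7 and 6.25. It was in neither I-BET151 list. This peak ranked low in DMSO, at 83.0 and 92.7% of the lists from their top. With lists of equal length it was no longer in the list of DMSO replicate 2, where the covered length fell to 1.48 kb.

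In I-BET151 the only gained region of the member windows, chr1:155195001-155195375, lay 2243 bp upstream of MUC1 and 19 bp from the start of the microRNA gene MIR92B. Its fold was 4.93 and 4.62, its −log10 q 19.2 and 17.6 and its summit level 189 and 221. Because both lie within 3 kb of the MUC1 start, the start peak of MUC1 had a fold of 4.16 ± 0.44 in DMSO and 4.77 ± 0.22 in I-BET151, but the values belong to different regions. With a limit of 1 kb, MUC1 had a start peak in DMSO only.

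Shared regions of the MUC1 window lay at KRTCAP2 and at the paired starts of THBS3 and MTX1. At KRTCAP2 the summit level was 327 and 332 in DMSO and 288 and 308 in I-BET151, lower in both treated libraries, while the fold overlapped (9.19 and 9.88 in DMSO, 6.94 and 9.58 in I-BET151). At THBS3 and MTX1 the fold was 4.83 and 5.21 in DMSO and 5.95 and 7.40 in I-BET151, and the summit level 406.5 and 390.0 against 455.0 and 507.3, both higher in the treated libraries.

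CFTR, the chloride channel at the luminal face of duct cells (chr7:117287120-117715971, plus strand), was the member with a stronger start peak in I-BET151. Its window held 1 region, with the summit upstream of the canonical start. It covered 520 and 507 bp in DMSO against 586 and 505 bp in I-BET151, which overlap. The fold was 12.1 and 11.6 in DMSO and 16.9 and 14.8 in I-BET151, so that both treated libraries lay above both DMSO libraries.

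The mean fold at CFTR was 11.9 ± 0.39 in DMSO and 15.8 ± 1.45 in I-BET151 (SD, n = 2 each), a ratio of 1.33 (exact permutation p = 0.33). Local input was alike, 19.6 and 18.9 times the genome-wide level in DMSO and 21.0 and 20.3 in I-BET151. The summit level was 274 and 259 in DMSO and 410 and 358 in I-BET151, a ratio of 1.44. The −log10 q was 61.1 and 48.6 in DMSO against 101 and 71.0 in I-BET151. Both fold and summit level thus placed CFTR higher in both treated libraries. SPP1 (chr4:87975667-87983532, plus strand), which encodes the secreted matrix protein osteopontin, had no peak in its window in any library.

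Of the 5 members with a start peak in all libraries, the fold was higher in both I-BET151 libraries at 2 (CFTR, and MUC1 at another region) and lower in both at 1 (KRT19). Over the 9130 protein-coding genes with such a peak in all libraries, 25.0% were higher and 15.7% were lower, and the median I-BET151 to DMSO ratio of the fold was 1.06. The members' counts are too few to be read against these shares. By summit level, KRT19 and CLDN4 were lower in both treated libraries, CFTR was higher, MUC1 was higher at another region (106 and 205 in the mean), and KRT8 overlapped. The share of all genes whose groups separate by summit level was not worked out, so these members cannot be read against a background.

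Other genes of the epithelium were counted in the same way, from 4 lists of 61 genes in all, also chosen with earlier results known. Of these 61, 29 had a lower and 7 a higher covered length in both I-BET151 libraries, among 50 with a peak in any library, and the median over the 61 was −0.07 kb. The background shares are those given for all windows, 41.2% and 13.2%. Among the 22 of 23 junction and polarity genes with a peak, 13 were lower and 4 higher. Among the 14 of 16 epithelial regulators and surface proteins with a peak, 9 were lower and 1 higher, and the median over all 16 was −0.37 kb. Among the 11 of 16 ductal transport and cilia genes with a peak, 6 were lower and 2 higher, and TFF1 and TFF2, whose windows overlap, were counted on the same peaks. Among the 3 of 6 other keratins with a peak, 1 was lower (KRT23) and 0 were higher.

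On these lists the covered length was shorter by most at NHERF1, a scaffold that binds CFTR and other apical transporters, JUP, the junction protein plakoglobin, and LLGL2, a basolateral polarity protein. NHERF1 was covered over 5.77 and 6.48 kb in DMSO against 3.68 and 3.17 kb in I-BET151. JUP was covered over 3.85 and 3.74 kb in DMSO against 2.43 and 1.75 kb in I-BET151. In both, the treated libraries lay well below the DMSO libraries. LLGL2 (7.60 and 7.11 kb against 6.56 and 4.92 kb), the membrane protease PRSS8 (2.22 and 1.68 kb against 0.31 and 0.41 kb) and the claudin CLDN6 (4.04 and 4.38 kb against 2.80 and 3.03 kb) came next. These lengths include the flanks and so can hold peaks of neighbouring genes. The start fold overlapped between groups at NHERF1 (8.24 and 23.7 in DMSO, 14.0 and 7.25 in I-BET151). It also overlapped at LLGL2 (10.3 and 14.7 in DMSO, 11.6 and 7.36 in I-BET151). At JUP and CLDN6 the start fold was lower in both treated libraries, and PRSS8 had a start peak in DMSO only.

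In the other direction the differences were small. The adhesion molecule EPCAM was covered over 1.66 and 1.70 kb in DMSO against 1.80 and 1.76 kb in I-BET151. The surface protein CD24, the polarity protein PARD3 and the ductal bicarbonate transporter SLC4A4 were also higher in both treated libraries, by 0.10 to 0.17 kb in the mean. The plot of mean lengths shows these genes close to the line of equal length, with NHERF1 and JUP well below it. EPCAM thus lay on the other side from CLDN7 and CLDN4 although all encode proteins of cell contacts.

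Of the 45 genes on these lists with a start peak in any library, 7 had it in both DMSO and in neither I-BET151 library. The share was 4.02% of all protein-coding genes with a start peak. Because the lists were chosen with earlier results known, this gap is a description only. The 7 genes are named here because of that outcome, after their values were seen: CDH1, TJP3, MARVELD3, PKP3, PRSS8, ITGB4 and KRT23. CDH1 encodes E-cadherin, the main adhesion molecule of epithelial cells. Its start peak had a fold of 3.55 and 3.20 in DMSO, and its covered length was 1.54 and 1.43 kb in DMSO against 0.51 and 0.54 kb in I-BET151. The folds of the 7 start peaks in DMSO ran from 2.90 at ITGB4 to 6.59 at PRSS8, below those at CLDN7 upstream of its start (8.07 and 8.48).

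**Figure D4:**
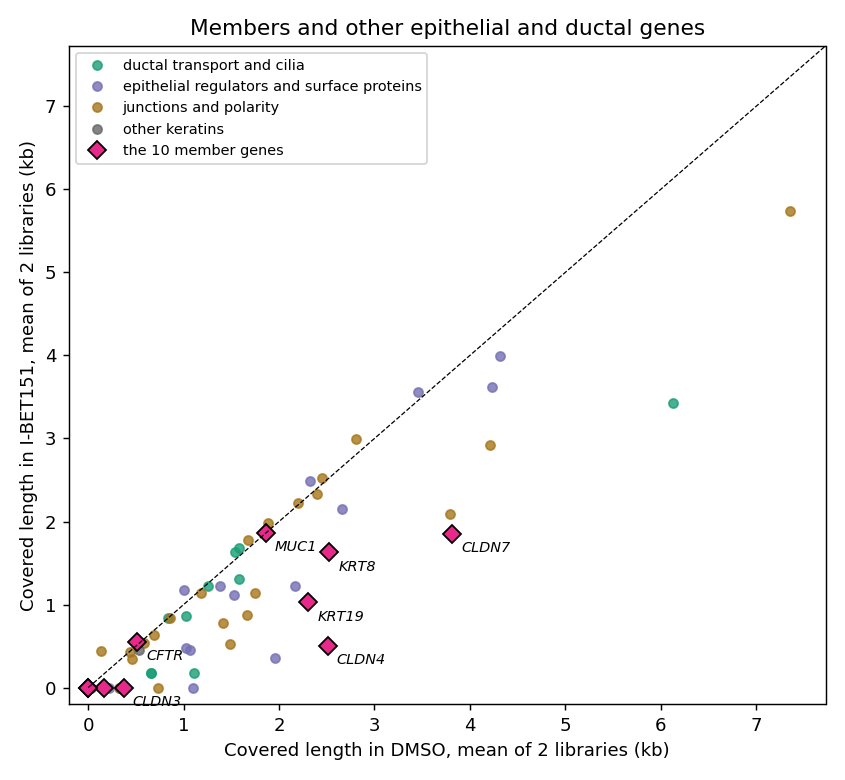
Mean covered length in DMSO (kb, horizontal axis) and in I-BET151 (kb, vertical axis), each a mean of 2 libraries, for the 10 member genes (diamonds) and 61 other epithelial and ductal genes (circles, coloured by list). The dashed line marks equal length. CLDN4, KRT19, CLDN7 and KRT8 lie below it, and CFTR and MUC1 lie on it.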

How the data were processed

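H3K27ac ChIP-seq was measured in 2 DMSO and 2 I-BET151 libraries, grouped by title. The 4 input libraries entered only through the deposited peak lists, that is the calls, folds, p- and q-values, and the levels worked out from these. Per the methods and labels, alignment to hg38 was done by the authors with Bowtie2 (version 2.2.5), sambamba served as read filter, Picard took out duplicates, samtools took out mitochondrial reads, and MACS2 (version 2.1.2, defaults) gave 1 peak list per library, without pooling. Duplicate removal caps peak height, and a fixed threshold leaves out weak acetylation, more so in shallower libraries. The deposited lists give each peak's interval, summit, score (not used), fold enrichment as a ratio over local background, and −log10 p and −log10 q. The lowest −log10 q was 1.30 to 1.36.

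From these, peaks were assigned to GENCODE release 44 windows, covered lengths were summed, and regions were merged at a minimum overlap of 1 bp. Whole ChIP reads and local input were worked out from fold and p for 99.1 to 99.5% of peaks, which also gives depth (7.76 to 9.84 M ChIP and 2.67 to 3.04 M input reads, M for mega). The procedure was tested on simulated data. Groups were compared with two-sided exact permutation tests in Python 3.11.15 (scipy 1.17.1).

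The members and the lists of other genes were chosen with earlier results of these data known. All members were described, with every region gained, lost, at a member's start or called in some libraries, and the 5 largest differences in each direction among the other genes, of which 1 is not reported here. Alternatives were another flank, a stricter q, lists of equal length, other merging rules, a nearer start, the summit level in place of the fold, the replicate block, and leaving out each library.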

Additional observations from a re-analysis of the deposited data

Results flagged for a closer look

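Input chromatin was not analysed as a separate sample, but its local level at each peak follows from the fold and p-value. At the members' peaks the median local input was 22.9 and 22.7 times the genome-wide input level in DMSO replicates 1 and 2, and 24.5 and 34.6 times in I-BET151 replicates 1 and 2. It was picked out because the input was not compared on its own, although it enters the fold and the p-value of every peak. The medians are taken over different peaks in each library. Where the local input differs between groups, as at CLDN4, fold and summit level give different orders, and both are given there. The part of the input level in those differences was not tested.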

How the results depend on the processing

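Of 167 recomputed values for 21 results, 153 kept their direction or, for counts, stayed within 1.5 times, although several sizes moved by more than the spread between libraries. The difference in covered length at the member windows was −4.86 kb with a 5 kb flank, −9.24 kb with a 50 kb flank, −6.10 kb at −log10 q of at least 5, −5.31 kb with lists of equal length and −7.28 to −5.70 kb with single libraries left out. The count of members with a lower covered length was 3 to 6. KRT8 overlapped with a 5 kb flank (−0.29 kb), at −log10 q of at least 5 (−0.29 kb) and with lists of equal length (−0.15 kb), against −0.9 kb. Leaving out one library gave 0 to 1 members with a higher length (1 without DMSO replicate 1 and 1 without I-BET151 replicate 2) and 10 to 16 lost regions (16 without DMSO replicate 1). The count of lost regions was 8 with lists of equal length and 8 with peaks within 500 bp merged. It was 10 at −log10 q of at least 5 and 11 where at least 50% of a region had to be covered. Signs changed at MUC1, CFTR and KRT8, where the groups overlap. The covered length at MUC1 differed by −0.012 kb with a 50 kb flank and by −0.0755 to 0.0805 kb with single libraries left out, that at CFTR by −0.0085 to 0.0725 kb, and the start fold at KRT8 by −1.52 to 1.69. The KRT8 start difference was −63.4 by summit level. The cause of these changes was not tested.

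Replicate numbers are shared between the groups, and no label says what a number marks. The correlation of same-numbered libraries' deviations in covered length was 0.109 over 13649 windows. With the replicate block the differences were the same, −6.49 kb in covered length (−5.51 and −7.47 kb by pair) and −2 members with a start peak, and an exact permutation test over 2 pairs cannot pass 0.05. With 2 libraries a group and summits of at least 14 reads, differences smaller than the spread between libraries were not detectable.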
